A study of Mus musculus with 9 samples.

Results

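Antisense transcripts are RNAs read from the DNA strand opposite to an annotated gene, here called the sense gene. The members described here were the antisense genes that were expressed in monocytic myeloid-derived suppressor cells (M-MDSCs), immature monocyte-like cells that restrain T cells in tumours. A member had the biotype antisense, lay on an autosome and had a mean of 1 FPKM or more in at least 1 of the 3 genotypes, with Il1bos and Gm42031 set aside by name. FPKM is a fragment count scaled to gene length and library size. The rule found 219 members among 2779 such autosomal antisense genes and 54532 genes in all. They were chosen by their measured group means, so those levels are given as a description.

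The cells had been sorted from tumours of mice bearing MC38, a mouse colon carcinoma line, and polyadenylated RNA had been sequenced from a strand-marking preparation. There were 3 genotypes with 3 libraries each: LILRB4+/+ SCG2-/- mice (SCG2 knockout), LILRB4+/+ mice (LILRB4) and WT mice. SCG2 knockout mice thus carried the same LILRB4+/+ genotype as their comparison group. LILRB4 is an inhibitory receptor of myeloid cells and SCG2 is a secreted granin protein, and the series title concerns the interaction between them. The labels left the nature of the LILRB4+/+ allele, the tissues that lack SCG2, the sorting gate and the mouse behind each library unstated. The p-values therefore measure the spread between libraries, which may be technical.

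The libraries held between 15004944 and 28070495 reads. Scg2 had 2 reads in all 9 libraries together, so the knockout could not be checked. Lilrb4a, the mouse counterpart of the receptor, had 131 to 157 FPKM in SCG2 knockout, 154 to 274 FPKM in LILRB4 and 47.7 to 138 FPKM in WT libraries. The monocyte markers Ly6c2, Itgam, Csf1r and Ccr2 were detected in every library. The full monocyte list of 8 genes summed to 1155 to 2492 FPKM in SCG2 knockout, 2169 to 3154 FPKM in LILRB4 and 1112 to 3002 FPKM in WT libraries. The 7 macrophage markers summed to 363 to 681 FPKM in SCG2 knockout, 507 to 1009 FPKM in LILRB4 and 562 to 923 FPKM in WT libraries. The neutrophil marker Ly6g had 6 reads in all, but the 8 genes of the neutrophil list summed to 49.2, 41.9 and 36.0 FPKM in SCG2 knockout, 84.1, 223 and 108 FPKM in LILRB4, and 39.6, 72.3 and 38.2 FPKM in WT libraries, so that LILRB4 lay above both other genotypes. The libraries also held T and NK cell RNA: the 14 markers of that list, all measured, summed to 373, 662 and 645 FPKM in SCG2 knockout, to 692, 97.7 and 535 FPKM in LILRB4, and to 374, 100.2 and 135 FPKM in WT libraries. The 6 dendritic cell markers summed to 94.2, 153 and 93.1 FPKM in SCG2 knockout, 144, 29.98 and 136 FPKM in LILRB4, and 79.3, 43.3 and 49.3 FPKM in WT libraries. The 5 B cell markers summed to at most 7.81 FPKM, and the 5 fibroblast markers to 163 to 292 FPKM, in every library.

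Annotated antisense RNAs are often spliced and polyadenylated, are mostly low in abundance, and many have no known function. Some begin beside the promoter of the sense gene and run away from it, some lie wholly inside the sense gene, and others overlap only its far end. A few, such as the Xist partner Tsix, are known to act on the gene they overlap. Transcripts named with the ending os (opposite strand) carry the name of the gene they face.

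Among the 219 members, 201 overlapped an opposite-strand gene, which was protein-coding for 194. By arrangement, 110 lay inside the sense gene, 44 met it tail to tail, 39 met it head to head, 8 contained it, and 18 overlapped no opposite-strand gene. Of those 18, 10 lay within 1000 bases of one. Gene length ran between 165 and 10812 bases with a median of 770, and 21 members had a single exon. They were spread over all 19 autosomes, with 23 on chromosome 11.

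Promoter windows of 2 head-to-head pairs are given, taken from RefSeq on GRCm38.p6 and running from 250 bases before to 50 bases after each RefSeq start. Tug1, a long noncoding RNA that is conserved in mammals, starts 179 bases from Morc2a, which encodes a chromatin ATPase, in the deposited coordinates. There the 2 starts lie inside each other's gene. The RefSeq start of Tug1 used for its window lies within the gene as deposited. Neither window of this pair covers the deposited start of its gene, so they do not show the 179-base arrangement. Gm15867 starts 833 bases from Sertad4, a member of the SERTA-domain family, and is shown because it moved with its sense gene. Capitals mark the GC box (GGGCGG, or CCGCCC on the other strand), and each sequence reads 5′ to 3′ on the strand of its own gene.
Tug1, chr11:3648765-3649064, minus strand: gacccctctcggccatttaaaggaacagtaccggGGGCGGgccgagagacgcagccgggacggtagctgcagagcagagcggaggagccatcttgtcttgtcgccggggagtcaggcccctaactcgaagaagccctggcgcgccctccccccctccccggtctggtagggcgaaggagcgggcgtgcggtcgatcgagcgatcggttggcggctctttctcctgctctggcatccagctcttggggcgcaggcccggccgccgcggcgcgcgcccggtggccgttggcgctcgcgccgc
Morc2a, chr11:3649187-3649486, plus strand: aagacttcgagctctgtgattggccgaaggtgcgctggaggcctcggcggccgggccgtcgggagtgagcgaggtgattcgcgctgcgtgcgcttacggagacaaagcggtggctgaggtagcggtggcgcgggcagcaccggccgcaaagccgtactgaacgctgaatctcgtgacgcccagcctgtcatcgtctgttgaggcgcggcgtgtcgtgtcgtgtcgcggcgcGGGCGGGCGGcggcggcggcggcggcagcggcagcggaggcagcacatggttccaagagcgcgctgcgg
Gm15867, chr1:192854678-192854977, plus strand: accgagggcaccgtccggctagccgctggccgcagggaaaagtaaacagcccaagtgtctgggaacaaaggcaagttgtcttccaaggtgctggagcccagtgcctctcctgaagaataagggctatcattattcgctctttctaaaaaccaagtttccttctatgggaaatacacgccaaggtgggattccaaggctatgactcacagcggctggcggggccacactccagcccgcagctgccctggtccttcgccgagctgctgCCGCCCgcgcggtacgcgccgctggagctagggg
Sertad4, chr1:192855703-192856002, minus strand: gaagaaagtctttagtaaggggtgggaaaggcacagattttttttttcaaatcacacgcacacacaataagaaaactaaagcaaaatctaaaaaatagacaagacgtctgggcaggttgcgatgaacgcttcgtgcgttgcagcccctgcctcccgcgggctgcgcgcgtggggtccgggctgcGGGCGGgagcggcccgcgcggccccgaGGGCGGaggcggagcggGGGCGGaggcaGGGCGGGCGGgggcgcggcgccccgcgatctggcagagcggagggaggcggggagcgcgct
The Tug1 window held 1 GC box, the Morc2a window 2, the Gm15867 window 1 and the Sertad4 window 5, counting overlapping matches on both strands. A GC box was present in 35.7% of all 32851 windows of that length. None of the 4 windows held a TATA box (TATAAA or TTTATA), which 13.6% of all windows held. Windows were found for 76 members by symbol. Of the 100 windows of those members, 35 held a GC box and 6 a TATA box.

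How reads were assigned bears on every level below. Among the 453 genes of any biotype whose exon bases all lay on exons of opposite-strand genes, 3 had a read in any library, against 46.6% of genes with no such base. Among autosomal antisense genes the shares were 1 of 71, against 53.4%. Bases shared by exons of both strands thus gave next to no reads to either gene. Reads over those bases were therefore not divided between the genes by strand, although the preparation marked it. The counts do not show the strand of the remaining reads, so the FPKM of a member may hold reads of either strand. Antisense RNA cannot be told apart from unspliced sense RNA where antisense exons lie in sense introns. FPKM divides by the full length, so shared exon bases, which take next to no reads, lower the FPKM of a member. Any reads of the sense strand would raise it, so the net direction is not known. Of the members, 71 shared no exon base with an opposite-strand exon.

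**Figure D1:**
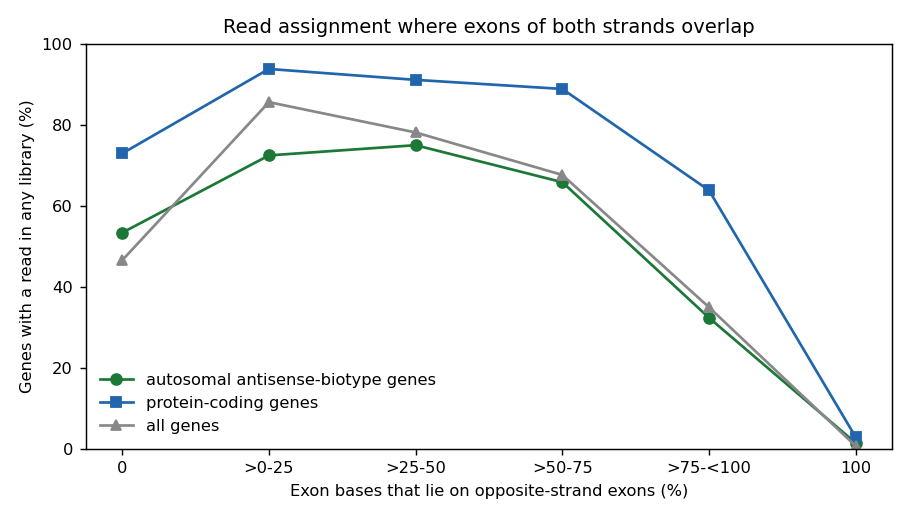
Share of genes with a read in any of the 9 libraries (vertical axis, %) by the share of their exon bases that lies on exons of opposite-strand genes (horizontal axis, %), for autosomal antisense genes, protein-coding genes and all genes. The share is 53.4% for antisense genes without shared bases and 1.41% for those with all bases shared.

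Mean levels over all libraries ran between 0.432 and 25.5 FPKM with a median of 1.36. The median member was at 0.109 times the FPKM of its sense gene, and 22 members were above theirs. Reads were few: the median member had 26.6 reads per library and 40 members had under 10. The 3 members just inside the threshold were 1700126G02Rik, Gm40578 and Gm17133, and the 3 genes just outside it were Gm11457, AC165271.1 and Chrna1os. A mean of 1 FPKM was reached in all 3 genotypes by 103 members, in 2 by 58 and in 1 by 58, of which 24 entered through SCG2 knockout alone, 31 through LILRB4 alone and 3 through WT alone. These entry counts follow from the rule and the library levels together and carry no test.

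The highest member was 4930430E12Rik (chr4:6352105-6357530, minus strand), which overlapped no opposite-strand gene. It had 41.0, 26.0 and 16.0 FPKM in SCG2 knockout, 24.6, 30.1 and 25.6 FPKM in LILRB4, and 35.1, 15.5 and 15.8 FPKM in WT libraries. The genotypes overlapped, with the widest spread in SCG2 knockout. Over the 9 libraries its pattern was most like that of Plau, the urokinase plasminogen activator. Pearson's r was 0.94, the highest among 12425 genes searched. The top r of so large a search over 9 libraries is raised by selection. That r carries no test, nor do the likenesses given for the next members.

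Next was 1700058P15Rik (chr7:19258492-19259739, plus strand), which lies inside Vasp, a gene for an actin-filament elongation factor, with no exon base shared with Vasp exons. It had 16.2, 14.7 and 24.3 FPKM in SCG2 knockout, 39.5, 23.4 and 29.3 FPKM in LILRB4, and 12.6, 10.3 and 12.4 FPKM in WT libraries. All LILRB4 libraries were above all WT libraries, while SCG2 knockout overlapped LILRB4. The exons of 1700058P15Rik lie in Vasp introns, so its reads cannot be told apart from unspliced Vasp RNA. Its pattern was most like that of Ercc6, a DNA repair gene (r = 0.95).

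Gm17201 (chr10:128391842-128395563, minus strand) lies inside Ankrd52, a regulatory subunit of a protein phosphatase. It had 17.0, 11.7 and 16.9 FPKM in SCG2 knockout, 15.9, 19.9 and 18.3 FPKM in LILRB4, and 19.5, 23.7 and 16.6 FPKM in WT libraries. The genotypes overlapped, and the member was above its sense gene, whose mean FPKM it exceeded 2.27 times. Its pattern was most like that of Nat14 (r = 0.96).

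Tug1 (chr11:3639785-3649673, minus strand) was the steadiest of the 10 highest members, with 8.04, 9.95 and 9.26 FPKM in SCG2 knockout, 11.2, 9.79 and 8.86 FPKM in LILRB4, and 8.27, 7.41 and 8.05 FPKM in WT libraries. Its reads are the least sparse, at a mean of 1776 per library, though 4 same-strand genes overlap it and reads could be split among them. Morc2a, its head-to-head partner, averaged 10.01 ± 0.293 FPKM in SCG2 knockout, 9.89 ± 1.51 FPKM in LILRB4 and 8.69 ± 1.69 FPKM in WT libraries (SD, n = 3 each).

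Brip1os, named for a DNA helicase gene and containing the Integrator subunit gene Ints2, averaged 6.60 ± 0.40 FPKM in SCG2 knockout, 7.08 ± 1.53 FPKM in LILRB4 and 9.15 ± 1.26 FPKM in WT libraries (SD, n = 3 each). Gm26982 meets Ghrl, the ghrelin gene, tail to tail, and was 16.8 times its sense gene in FPKM. It averaged 12.2 ± 3.3 FPKM in SCG2 knockout, 13.0 ± 3.5 FPKM in LILRB4 and 6.27 ± 1.18 FPKM in WT libraries (SD, n = 3 each). Neither passed the limma test in any comparison described below, while Gm26982 was called higher in LILRB4 over WT by DESeq2 (adjusted p = 0.0116) and by edgeR without a low-count filter (adjusted p = 0.00806).

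**Figure D2:**
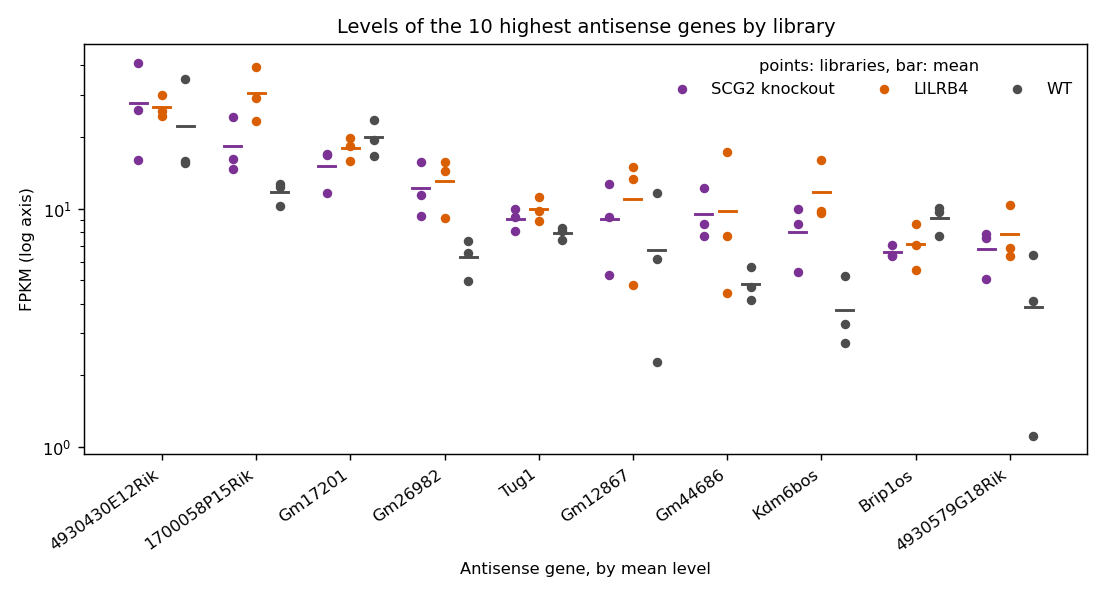
FPKM (log axis) of the 10 members with the highest means, ordered by mean, in the 9 libraries; points are libraries and bars are means of SCG2 knockout, LILRB4 and WT (n = 3 each). For 1700058P15Rik the LILRB4 libraries sit between 23.4 and 39.5 FPKM and the WT libraries between 10.3 and 12.6 FPKM.

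The libraries differed from each other across the members as a class. The median deviation of the members from their own mean, on the log2(FPKM + 0.5) scale, was -0.01, 0.15 and 0.18 in SCG2 knockout, 0.42, -0.06 and 0.10 in LILRB4, and 0.02, -0.55 and -0.31 in WT libraries. WT replicate 2 was the lowest library for 78 members and LILRB4 replicate 1 the highest for 67. Protein-coding genes in the same range of levels had library medians within a range of 0.061.

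The range was widest for members inside a sense gene (1.16) and tail to tail (1.09), and narrower for those head to head (0.55) or without an overlapping gene (0.47). Genes of the biotype TEC, single-exon models awaiting experimental proof, deviated by -0.01, 0.08 and 0.27 in SCG2 knockout, 0.38, -0.05 and 0.09 in LILRB4, and -0.02, -0.45 and -0.29 in WT libraries. WT replicate 2 was thus the lowest and LILRB4 replicate 1 the highest library for TEC genes as for the members. The 3 libraries with the lowest T and NK cell marker sums given above, LILRB4 replicate 2, WT replicate 2 and WT replicate 3, were also the 3 with the lowest member medians, and LILRB4 replicate 1 was the highest in both. The same 3 libraries had the lowest dendritic cell, B cell and endothelial marker sums. The endothelial sums were 6.94 FPKM in LILRB4 replicate 2, 4.95 FPKM in WT replicate 2 and 5.92 FPKM in WT replicate 3. The monocyte, macrophage, neutrophil, fibroblast and colon carcinoma lists were not lowest in this set of libraries. In bulk samples fewer cells of a type and less RNA per cell cannot be told apart, and the part of these marker lists or of the TEC genes in the members' levels was not tested.

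**Figure D3:**
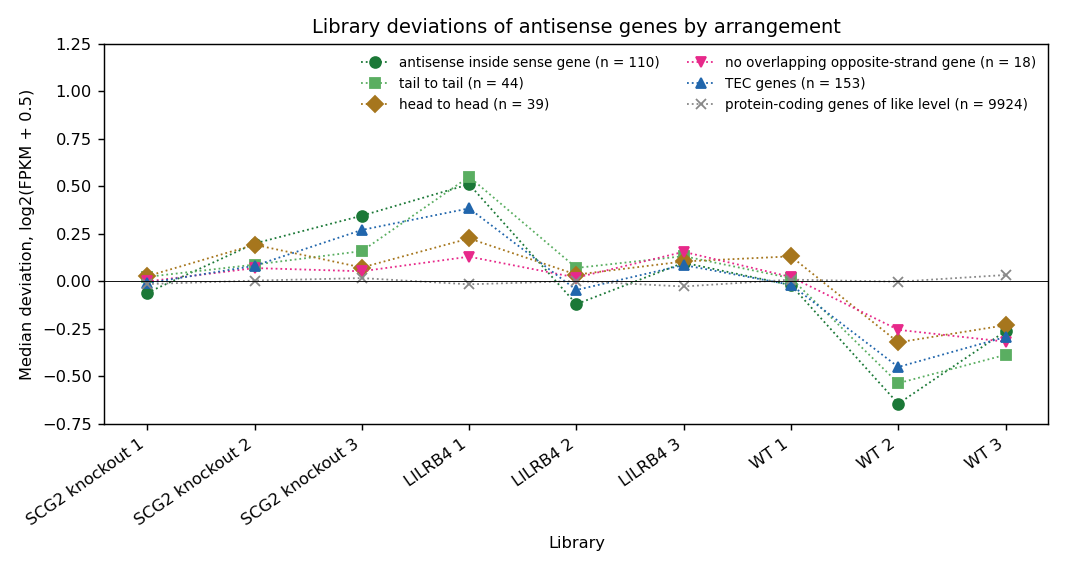
Median deviation from each gene's own mean, on the log2(FPKM + 0.5) scale, in each of the 9 libraries, for members by arrangement, for TEC genes and for protein-coding genes of like level. Members inside a sense gene lie at -0.64 in WT replicate 2 and 0.51 in LILRB4 replicate 1, while protein-coding genes stay near 0.

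The comparison of LILRB4 with WT asked how the LILRB4+/+ genotype changed these cells. One member, Gm48689, rose, and most of the rest lay on the higher side without passing the test. Each comparison was fitted by limma on log2(FPKM + 0.5) across 18904 genes, with Benjamini-Hochberg adjustment over all of them. Members were tested if their mean over all 9 libraries was 1 FPKM or more, which held for 160. The other 59 are described without a test. Some of the 160 reached a mean of 1 FPKM in 1 genotype alone, among them 5830432E09Rik, Gm20511, Gm43604, Gm49226 and Gm48780, which are named below. That genotype made them members, so their fold changes and the p-values of these are given as a description. Of the 160, 1 was called higher and 0 lower at an adjusted p under 0.05, beside 0.164% of all genes called higher and 0% called lower. At an unadjusted p under 0.05, 28 were higher and 1 lower, against 8.57% and 7.15% of all genes.

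Gm48689 (chr10:94781974-94787161, minus strand) lies inside Cep83, a gene for a protein of the centriole's distal appendages, and shares no exon base with an opposite-strand exon. It had 1.94, 1.95 and 2.17 FPKM in SCG2 knockout, 2.30, 2.15 and 3.02 FPKM in LILRB4, and 0.622, 0.739 and 0.648 FPKM in WT libraries. All libraries of both LILRB4+/+ genotypes were above all WT libraries. The exons of Gm48689 thus lie in Cep83 introns, so its reads cannot be told apart from unspliced Cep83 RNA. The log2 fold change of LILRB4 over WT was 1.34 (SE 0.16, adjusted p = 0.0308, limma with Benjamini-Hochberg adjustment).
It rested on 17, 23 and 36 reads in LILRB4 and 6, 8 and 6 in WT libraries. The call was lost in edgeR on the recovered reads (adjusted p = 0.0851) and with no filter on low values (limma adjusted p = 0.0593). It was also lost when LILRB4 replicate 1 was left out (limma adjusted p = 0.145) and in 7 of the other 8 single-library omissions. With the replicate block or only the 2 groups compared it was lost too. The call was kept in DESeq2 on the recovered reads (adjusted p = 0.0316), and in limma with a pseudocount of 0.1 or 1 or a filter of 1 FPKM. Cep83 itself had 9.36, 7.96 and 9.14 FPKM in LILRB4 and 6.33, 5.42 and 6.14 FPKM in WT libraries, a log2 fold change of 0.53 that did not pass (SE 0.14, limma adjusted p = 0.142).

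Gm14286 (chr2:157544266-157545469, minus strand) overlaps no opposite-strand gene. It had 5.42, 3.77 and 3.15 FPKM in SCG2 knockout, 10.1, 12.2 and 4.48 FPKM in LILRB4, and 1.81, 1.52 and 1.26 FPKM in WT libraries. LILRB4 and WT did not overlap, and the log2 fold change of 2.12 (SE 0.33) had a limma adjusted p of 0.0569. In edgeR on the recovered reads its adjusted p was 0.0307. The same tool called 1700058P15Rik (adjusted p = 0.0413) and Kdm6bos (adjusted p = 0.0487), which limma with adjustment did not (0.0730 and 0.0836).

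Kdm6bos lies inside Kdm6b, which encodes a histone H3 lysine demethylase induced in activated macrophages. Kdm6bos had 5.40, 10.01 and 8.63 FPKM in SCG2 knockout, 16.0, 9.63 and 9.76 FPKM in LILRB4, and 5.22, 2.72 and 3.30 FPKM in WT libraries. Kdm6b had 152, 119 and 94.2 FPKM in LILRB4 and 57.5, 51.5 and 75.2 FPKM in WT libraries. Antisense and sense gene were both above WT in all LILRB4 libraries, by log2 fold changes of 1.54 (SE 0.30) for Kdm6bos and 0.97 (SE 0.25) for Kdm6b, and neither passed (limma adjusted p = 0.0836 and 0.138).

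On the lower side the 3 members of smallest p were Gm15867, 2810001G20Rik and Brip1os. Gm15867 (chr1:192854923-192856246, plus strand) had 3.52, 3.61 and 7.07 FPKM in SCG2 knockout, 2.20, 3.58 and 3.31 FPKM in LILRB4, and 5.77, 6.86 and 7.51 FPKM in WT libraries. LILRB4 and WT did not overlap. Its log2 fold change was -1.05 (SE 0.26, limma adjusted p = 0.136), beside -0.67 (SE 0.15, limma adjusted p = 0.115) for Sertad4. 2810001G20Rik, which lies 16 bases from Cox10, a heme A synthesis gene, had a log2 fold change of -0.64 (SE 0.30, limma adjusted p = 0.341).

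The 160 tested members had a median log2 fold change of 0.37, beside 0.016 for all genes tested and 0.18 for their sense genes, and 117 were positive. Among them 26 had LILRB4 libraries all above WT (16.25%) and 3 all below, against 9.93% and 10.8% of all genes. Of their 138 sense genes, 36 lay all above (26.1%) and 11 all below (7.97%), so this excess was not particular to the members. The 822 autosomal antisense genes in the fit passed only the filter of 0.1 FPKM. Of these, 92 lay all above (11.2%) and 27 all below (3.28%), with a median log2 fold change of 0.13. Without WT replicate 2, the lowest library, the median of the tested members was 0.26, and without LILRB4 replicate 1, the highest, it was 0.23. By arrangement the medians were 0.45 for members inside a sense gene, 0.40 tail to tail, 0.29 head to head and 0.18 without an overlapping gene.

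Of the 138 sense genes of tested members in the fit, 2 rose in LILRB4 over WT, beside 0.164% of all genes; limma called no gene when fitted on those 2 genotypes alone. They were Ptpre, a receptor-type tyrosine phosphatase (log2 fold change 0.93, SE 0.11, limma adjusted p = 0.0308), and Rab11fip1, a recycling-endosome effector (log2 fold change 1.04, SE 0.15, limma adjusted p = 0.0483). Their antisense members 5830432E09Rik and 4933416M07Rik had log2 fold changes of 0.53 (SE 0.15, limma adjusted p = 0.172) and 1.26 (SE 0.47, limma adjusted p = 0.249). Across the 141 tested pairs, antisense and sense log2 fold changes had a Spearman rho of 0.44 and 91 pairs shared a sign, a description over genes that share their libraries.

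A list of 32 NF-kB inflammatory genes, among them Nfkbia, Tnfaip3, Il1a and Cxcl2, was read beside the members, since the sense genes of 3 members belong to it. The list was chosen with results of these libraries known, so its direction is no independent evidence. None of the 32 passed the test in LILRB4 over WT; all 32 were positive and 28 reached an unadjusted p under 0.05, against 8.57% of all genes, with a median log2 fold change of 0.94. In SCG2 knockout over LILRB4, which shares the LILRB4 libraries, none passed either; 29 of 32 were negative, with a median of -0.44, and 12 reached an unadjusted p under 0.05, against 5.4% of all genes. Gm16174 lies inside Bcl3, a nuclear regulator of NF-kB, and was named after its values were seen. It had 8.17, 6.92 and 3.95 FPKM in LILRB4 and 2.32, 2.79 and 3.50 FPKM in WT libraries (log2 fold change 0.98, SE 0.25, limma adjusted p = 0.138). Bcl3 had a log2 fold change of 0.42 (SE 0.22, limma adjusted p = 0.379).

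**Figure D4:**
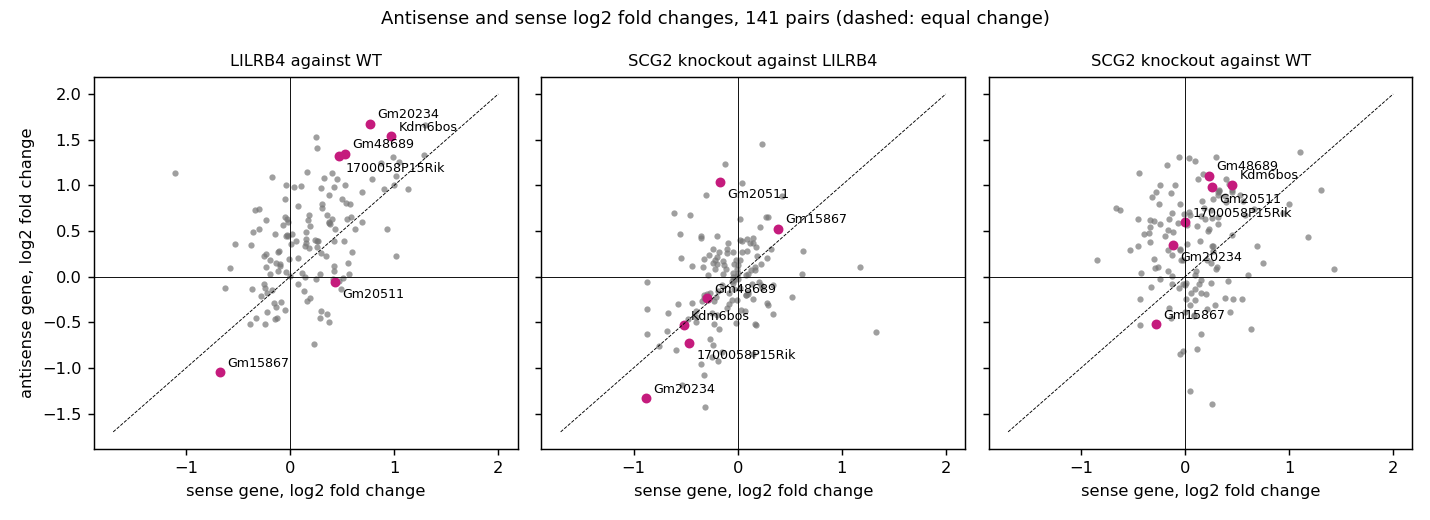
Log2 fold change of the antisense member (vertical axis) against that of its sense gene (horizontal axis), both on the log2(FPKM + 0.5) scale, for 141 pairs in each of the 3 comparisons. The dashed line marks equal change on that scale, which shrinks changes of low genes, and 6 named members are coloured. In LILRB4 against WT 91 of 141 pairs share a sign, in SCG2 knockout against LILRB4 83, and in SCG2 knockout against WT 73.

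The comparison of SCG2 knockout with LILRB4 asked what loss of SCG2 changed on the same LILRB4+/+ genotype. No member passed the test in either direction, beside 0% of all genes called higher and 0.0106% called lower. At an unadjusted p under 0.05, 3 members were higher and 9 lower, against 2.84% and 5.4% of all genes. The median log2 fold change was -0.03, with 77 members positive and 83 negative. SCG2 knockout libraries lay all above LILRB4 for 6 members and all below for 10, against 6.09% and 7.93% of all genes. DESeq2 on the recovered reads called 1 member lower, 5830432E09Rik, and edgeR called none.

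5830432E09Rik (chr7:135635931-135652314, minus strand) lies inside Ptpre. It had 0.707, 0.898 and 0.708 FPKM in SCG2 knockout, 1.47, 1.36 and 1.40 FPKM in LILRB4, and 0.953, 0.748 and 0.787 FPKM in WT libraries. LILRB4 libraries were above those of both other genotypes. The log2 fold change of SCG2 knockout over LILRB4 was -0.59 (SE 0.15, limma adjusted p = 0.401, DESeq2 adjusted p = 0.0409). The member reached a mean of 1 FPKM in LILRB4 alone, so these values are a description. Ptpre was likewise highest in LILRB4, with 6.58, 7.18 and 6.19 FPKM in SCG2 knockout, 11.3, 11.5 and 10.1 FPKM in LILRB4, and 5.27, 5.43 and 5.83 FPKM in WT libraries.

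Gm20234 (chr11:83065752-83071246, minus strand) meets Slfn2, a Schlafen gene that keeps T cells and monocytes quiescent in mice, tail to tail. It had 1.68, 3.91 and 4.59 FPKM in SCG2 knockout, 9.93, 8.64 and 7.69 FPKM in LILRB4, and 3.64, 1.33 and 2.64 FPKM in WT libraries. LILRB4 libraries were again above all others. The log2 fold changes were -1.33 for SCG2 knockout over LILRB4 (SE 0.36, limma adjusted p = 0.426) and 1.68 for LILRB4 over WT (SE 0.36, limma adjusted p = 0.110). For LILRB4 over WT it was called by DESeq2 (adjusted p = 0.00354) and by edgeR without a low-count filter (adjusted p = 0.00289), but not by edgeR with the filter. Both comparisons share the LILRB4 libraries.

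On the higher side Gm20511 (chr11:103190710-103192896, minus strand) lies inside Fmnl1, a formin of blood cells. It had 1.56, 1.79 and 2.27 FPKM in SCG2 knockout, 1.07, 0.554 and 0.414 FPKM in LILRB4, and 0.716, 0.729 and 0.639 FPKM in WT libraries. SCG2 knockout libraries were above all others, yet the log2 fold change over LILRB4 of 1.04 (SE 0.23) had a limma adjusted p of 0.325. Fmnl1 had 89.9, 105 and 108 FPKM in SCG2 knockout and 144, 107 and 94.6 FPKM in LILRB4 libraries, which overlap. Gm37850, inside the splicing regulator gene Rbm5, and Gm43604, inside the RNA polymerase II subunit gene Polr2j, followed with log2 fold changes of 1.23 (SE 0.45) and 0.89 (SE 0.39), with overlapping libraries; that of Gm43604 was 1.38 without LILRB4 replicate 1. Gm37768, tail to tail with the Golgi protein gene Acbd3, had one of -0.69 (SE 0.21).

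SCG2 knockout set against WT combines both changes of genotype. No member passed in either direction, beside 0% of all genes called. At an unadjusted p under 0.05, 27 members were higher and 5 lower, against 6.57% and 5.1% of all genes. The median log2 fold change was 0.34 and 114 of 160 were positive. It was 0.55 without WT replicate 1 and 0.26 without WT replicate 2, the library with the lowest member levels. The T and NK cell marker sums also differed, at 373 to 662 FPKM in SCG2 knockout and 100.2 to 374 FPKM in WT libraries, and their part in this shift was not tested. SCG2 knockout libraries lay all above WT for 32 members and all below for 6, against 10.5% and 9.25% of all genes. The shares of members were 20% and 3.75%, beside 20.3% and 7.97% of their 138 sense genes. Among the 822 autosomal antisense genes in the fit they were 11.3% and 4.5%, with a median log2 fold change of 0.12. This comparison shares libraries with both others, so its values stand beside theirs and not as further support.

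Gm48689 again had the smallest p, with a log2 fold change of 1.11 (SE 0.16, limma adjusted p = 0.301), followed by Gm20511 with 0.98 (SE 0.23, limma adjusted p = 0.424). Gm17098 starts 27 bases from Aph1c, a gamma-secretase subunit gene, head to head. It had 1.74, 2.05 and 2.23 FPKM in SCG2 knockout, 3.20, 1.88 and 2.35 FPKM in LILRB4, and 1.26, 0.397 and 0.155 FPKM in WT libraries. WT libraries were the lowest, with a log2 fold change of 1.30 for SCG2 knockout over WT (SE 0.34, limma adjusted p = 0.424).
On the lower side Gm13205, inside the zinc-finger gene Casz1, had 0.0973, 1.14 and 1.84 FPKM in SCG2 knockout, 3.03, 3.45 and 2.69 FPKM in LILRB4, and 3.07, 3.92 and 2.16 FPKM in WT libraries. Its log2 fold change was -1.40 (SE 0.44, limma adjusted p = 0.424) and SCG2 knockout lay below both other genotypes. SCG2 knockout replicate 1 had 1 read for it, and without that library the log2 fold change was -0.83. Gm37768 and Gm49226, inside the amyloid precursor gene App, had log2 fold changes of -0.63 (SE 0.21) and -0.85 (SE 0.31); that of Gm37768 was -0.40 without WT replicate 2.

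Whether an antisense gene and its sense gene changed unequally was tested on the log2 ratio of the pair per library. The 0.5 FPKM added to both sides shrinks changes of a low antisense gene more than those of a higher sense gene. An equal change of both can thus shift this ratio. Over 716 pairs of autosomal antisense genes, 0% were called in any comparison by limma with Benjamini-Hochberg adjustment. At an unadjusted p under 0.05 there were 52 pairs in LILRB4 against WT, 38 in SCG2 knockout against LILRB4 and 76 in SCG2 knockout against WT. The smallest adjusted p-values were 0.562, 0.315 and 0.118 in that order of comparisons. The median log2 ratio difference over the 141 tested member pairs was 0.22, 0.03 and 0.34, beside 0.087, 0.039 and 0.13 over all pairs. The Gm20511 pair had the difference with the smallest p between SCG2 knockout and LILRB4 among members, at 1.21 (SE 0.28, limma adjusted p = 0.315).

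None of the pairs of smallest p passed. In LILRB4 over WT the ratio difference was 2.24 (SE 0.58) for Gm16024, which lies inside Gm10563 and rested on a mean of 3.56 reads, 1.28 (SE 0.43) for Gm17098 and 0.82 (SE 0.28) for Gm48689. It was -0.79 (SE 0.36) for Zeb2os, inside the zinc-finger repressor gene Zeb2, -0.76 (SE 0.36) for Gm49226 and -0.87 (SE 0.44) for Gm37850.

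In SCG2 knockout over LILRB4, Gm36551, head to head with the activating receptor gene Pilrb1, had a ratio difference of 1.31 (SE 0.38) and Gm37850 one of 1.35 (SE 0.44). On the lower side were Gm16024 at -1.94 (SE 0.58), Gm17111, inside the dynein heavy chain gene Dync1h1, at -0.99 (SE 0.36), and Gm13205 at -1.11 (SE 0.48). In SCG2 knockout over WT, Gm26740, inside the NKG2D ligand gene Raet1e, had 1.35 (SE 0.33), Gm19557 had 1.252 (SE 0.39) and Gm48689 had 0.87 (SE 0.28). Gm13205 had -1.65 (SE 0.48), Runx2os1, inside the bone-forming factor gene Runx2, had -1.21 (SE 0.45), and Gm37768 had -0.78 (SE 0.31). The limma adjusted p-values of these pairs ran between 0.300 for Gm26740 and 0.772.

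Levels of antisense and sense gene were also compared across the 9 libraries, for the 130 member pairs in which both averaged 1 FPKM or more. Pearson's r was positive for 85 pairs. By a two-sided exact permutation test over all pairings of the libraries with Benjamini-Hochberg adjustment over the pairs, 13 were called positive (10%) and 4 negative (3.08%). By Spearman's rho 4 pairs passed. Members inside a sense gene made up 72 of the 130 pairs, 7 of the 13 positive ones and all 4 of the negative ones. The permutations ran over all 9 libraries regardless of genotype. For deviations from the genotype means, r of the 13 positive pairs ran between 0.67 for Kdm6bos and 0.95 for Gm47950, with 0.70 for Gm15867 and 0.84 for Gm48780, and r of the 4 negative pairs between -0.96 and -0.81. All pairs share the same 9 libraries, so they are not independent of each other.

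Gm48780 lies inside Arg2, the mitochondrial arginase. It had 0.878, 1.46 and 0.428 FPKM in SCG2 knockout, 1.40, 1.90 and 1.52 FPKM in LILRB4, and 0.468, 0.751 and 0.536 FPKM in WT libraries. Arg2 had 33.9, 37.6 and 22.7 FPKM in SCG2 knockout, 55.5, 55.9 and 57.9 FPKM in LILRB4, and 20.6, 33.8 and 23.6 FPKM in WT libraries. Both had their highest mean in LILRB4. Gm48780 reached a mean of 1 FPKM in LILRB4 alone, which made it a member, so the values of this pair are a description. Pearson's r was 0.94 (exact permutation p = 0.000499, adjusted 0.0145) and Spearman's rho 0.95 (exact permutation p = 0.000353, adjusted 0.0229). Pearson's r was 0.91 without the 2 libraries farthest from the median of Arg2.

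Gm48719 lies inside Cd3e, a subunit of the T cell receptor complex. It had 0.758, 3.40 and 1.86 FPKM in SCG2 knockout, 3.03, 0.233 and 1.88 FPKM in LILRB4, and 0.646, 0 and 0.673 FPKM in WT libraries, on a mean of 9.44 reads. Cd3e had 2.56, 7.30 and 8.26 FPKM in SCG2 knockout, 9.86, 1.28 and 5.30 FPKM in LILRB4, and 4.01, 1.31 and 2.05 FPKM in WT libraries. The pair was high where the T and NK cell marker sum was high, and Cd3e is itself one of those markers. Pearson's r was 0.93 (exact permutation p = 0.000471, adjusted 0.0145), Spearman's rho 0.85 (exact permutation p = 0.00607, adjusted 0.0658), and r without the 2 farthest libraries 0.88.
Gm16008 contains Tnfrsf18, which encodes GITR, a TNF receptor family member found on T cells. This pair moved likewise, with an r of 0.91 (exact permutation p = 0.000557, adjusted 0.0145), a rho of 0.88 (exact permutation p = 0.00308, adjusted 0.0571) and an r of 0.82 without the 2 farthest libraries. The part of T and NK cell RNA in these pairs was not tested.

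Gm29361 and Rbm25, a splicing factor gene, had an r of 0.93 (exact permutation p = 0.000157, adjusted 0.0145), a rho of 0.93 (exact permutation p = 0.000750, adjusted 0.0325) and an r of 0.84 without the 2 farthest libraries. 4930579G18Rik and Acin1, an RNA-processing factor of chromatin condensation, had an r of 0.92 (exact permutation p = 0.00134, adjusted 0.0232) that fell to 0.60 without the 2 farthest libraries and a rho of 0.67 (exact permutation p = 0.0589, adjusted 0.239). Their relation thus rested partly on those libraries.
For Gm15867 and Sertad4, the head-to-head pair shown above, r was 0.91 (exact permutation p = 0.00182, adjusted 0.0236), rho 0.85 (exact permutation p = 0.00607, adjusted 0.0658) and r without the 2 farthest libraries 0.95. For Kdm6bos and Kdm6b, r was 0.89 (exact permutation p = 0.00161, adjusted 0.0232), rho 0.87 (exact permutation p = 0.00451, adjusted 0.0658) and r without the 2 farthest libraries 0.84.

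The 4 negative pairs joined low antisense levels to high sense levels. Gm44199 lies inside Brk1, a subunit of the actin-regulating WAVE complex. Gm44199 had 0.666, 2.69 and 3.38 FPKM in SCG2 knockout, 2.96, 1.48 and 1.53 FPKM in LILRB4, and 1.70, 0.281 and 1.84 FPKM in WT libraries. Brk1 had 103, 77.4 and 60.5 FPKM in SCG2 knockout, 76.4, 111 and 103 FPKM in LILRB4, and 83.1, 127 and 85.6 FPKM in WT libraries. WT replicate 2 held the lowest antisense and the highest sense level. Pearson's r was -0.88 (exact permutation p = 0.00121, adjusted 0.0232), Spearman's rho -0.97 (exact permutation p = 0.000165, adjusted 0.0215) and r without the 2 farthest libraries -0.77.

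Gm16144 lies inside Anxa2, a membrane-binding annexin. Gm16144 had 2.38, 7.06 and 6.78 FPKM in SCG2 knockout, 5.22, 3.51 and 4.20 FPKM in LILRB4, and 2.76, 1.41 and 3.23 FPKM in WT libraries. Anxa2 had 419, 344 and 330 FPKM in SCG2 knockout, 301, 378 and 399 FPKM in LILRB4, and 385, 516 and 424 FPKM in WT libraries. WT replicate 2 again held the lowest antisense and the highest sense level. Pearson's r was -0.88 (exact permutation p = 0.00248, adjusted 0.0248), Spearman's rho -0.82 (exact permutation p = 0.0108, not passing the adjustment) and r without the 2 farthest libraries -0.86.
The other two were Gm19557 with Stn1, a telomere-capping gene, at an r of -0.87 (exact permutation p = 0.00235, adjusted 0.0248; rho -0.85, exact permutation p = 0.00607, adjusted 0.0658) and Gm37637 with the mitochondrial ribosome gene Mrps22 at -0.82 (exact permutation p = 0.00447, adjusted 0.0363; rho -0.83, exact permutation p = 0.00827, adjusted 0.0827). Without the 2 farthest libraries these were -0.73 and -0.81. Without WT replicate 2 no pair was called, positive or negative. There were 7 positive and 0 negative calls without SCG2 knockout replicate 2, 5 and 0 without WT replicate 3, and 6 and 1 without LILRB4 replicate 1, and 2 negative calls without SCG2 knockout replicate 3.

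**Figure D5:**
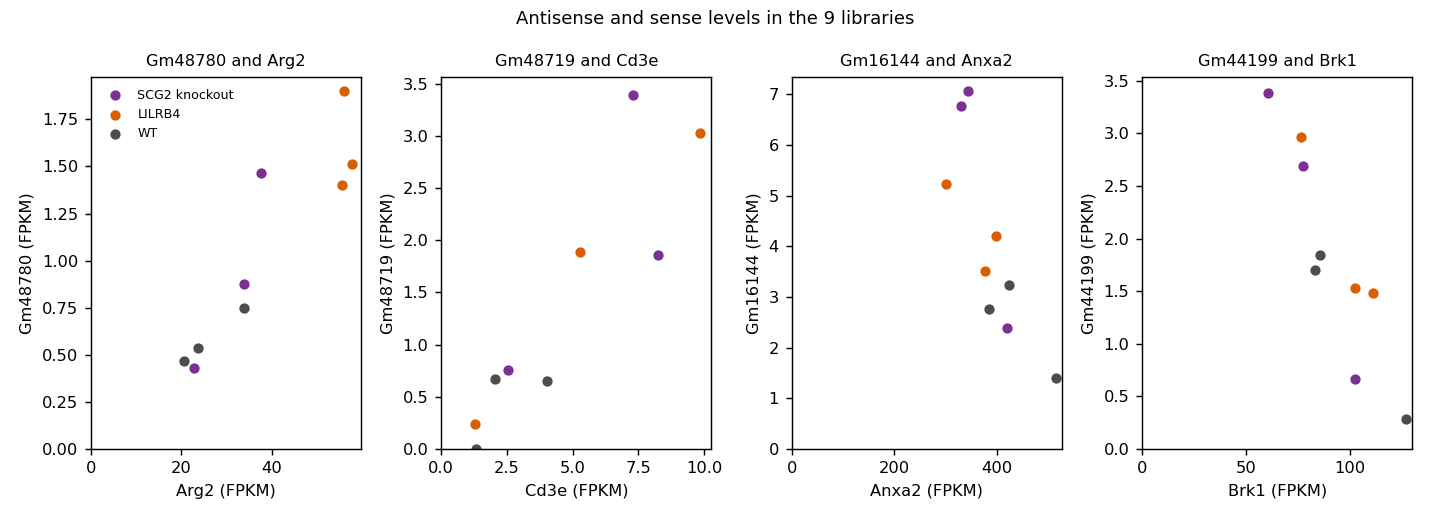
FPKM of the antisense member (vertical axis) against FPKM of its sense gene (horizontal axis) in the 9 libraries for Gm48780 with Arg2, Gm48719 with Cd3e, Gm16144 with Anxa2 and Gm44199 with Brk1; each point is a library, coloured by genotype. The first pair of panels rises, with an r of 0.94 and 0.93, and the second pair falls, with an r of -0.88 in both.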

How the data were processed

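Polyadenylated RNA of sorted M-MDSCs was measured in 9 libraries, 3 per genotype, grouped by the genotype label. Per the submitters' processing notes, HISAT2 2.0.5 and featureCounts 1.5.0-p3 were used; the genome build, strand setting and FPKM normalization were not given in the sources used here. The authors deposited FPKM values for 54532 genes and read counts for 9877 genes, none antisense. FPKM steps gave whole reads for 100% of values within 0.01. Coordinates of 217 members matched GENCODE M21 on GRCm38, which served for exons and overlaps.

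The sense gene was the opposite-strand gene of longest overlap. limma 3.58.1 (R 4.3.3, trend and robust) was run on log2(FPKM + 0.5) for genes with a mean of 0.1 FPKM or more, with Benjamini-Hochberg adjustment, and tested on simulated data. Fold changes on this scale understate those of low genes. edgeR 4.0.16 and DESeq2 1.42.0 on recovered reads, other pseudocounts and filters, a replicate block and single-library omissions were alternatives.

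Named members were the 10 highest, the called members or else the 3 of smallest p per direction for levels and ratios, the 4 highest and 4 lowest correlations, and those nearest the threshold; the pairs of Bcl3, Tnfrsf18 and Rab11fip1 were named after their values were seen. Members and lists were chosen with earlier results of these data known.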

Additional observations from a re-analysis of the deposited data

How the results depend on the processing

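Of the 18 fold changes of named members recomputed under the alternatives, none changed direction. The number of members was 395 at a threshold of 0.5 FPKM and 95 at 2 FPKM. In LILRB4 against WT, genes higher were 19 with a pseudocount of 1, 3 without the filter on low FPKM, 89 with a filter of 1 FPKM, 0 with the replicate block, 0 with only the 2 groups compared, 128 in edgeR, 662 in DESeq2 and 466 in edgeR without a low-count filter. Genes lower were 1 with a pseudocount of 0.1, 11 with a filter of 1 FPKM, 9 in edgeR, 302 in DESeq2 and 200 in edgeR without a filter. Members higher were 2 with a pseudocount of 0.1, 0 without the filter, 3 with a filter of 1 FPKM, 0 with the replicate block, 0 with only the 2 groups, 3 in edgeR, 11 in DESeq2 and 7 in edgeR without a filter. In SCG2 knockout against LILRB4, genes higher were 1 with only the 2 groups, 15 in DESeq2 and 13 in edgeR without a filter. Genes lower were 0 with a pseudocount of 1, without the filter, with a filter of 1 FPKM, with the replicate block, with only the 2 groups and in edgeR, against 150 in DESeq2 and 100 in edgeR without a filter; members lower were 1 in DESeq2. In SCG2 knockout against WT, genes higher were 92 in DESeq2 and 79 in edgeR without a filter, genes lower 32 and 40, and members higher 1 in edgeR without a filter. The cause of these differences was not tested.

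Leaving out single libraries moved genes higher in LILRB4 against WT between 0 and 90, genes lower between 0 and 5, members higher between 0 and 2 and pairs with a higher ratio between 0 and 1. In SCG2 knockout against LILRB4 genes higher ran between 0 and 2 and genes lower between 0 and 16, and in SCG2 knockout against WT genes higher between 0 and 2. Positive correlations ran between 0 and 15 and negative ones between 0 and 5.

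In the labels, same-numbered replicates shared only a number, and whether they were processed together was not stated. Correlations of their deviations were 0.378, 0.390 and -0.174 between LILRB4 and WT. They were -0.294, -0.129 and -0.0852 between SCG2 knockout and LILRB4, and -0.168, -0.0543 and 0.0969 between SCG2 knockout and WT. A batch common to same-numbered replicates could not be checked. With the replicate block, Gm48689 in LILRB4 against WT had a limma adjusted p of 0.132 and 0 genes were called in any comparison. At a median of 26.6 reads per member, counting error limits small differences.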
